A study of Mus musculus with 23 samples.

Results

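The choroid plexus and cortical hem genes described here are Ttr, Lmx1a, Otx2, Msx1, Folr1, Aqp1 and Clic6, taken by their symbols in the array annotation. They are 7 of 16593 genes and 12 of 25697 probes, with 3 probes each for Lmx1a and Aqp1, 2 for Folr1 and 1 for each of the other genes. Total RNA of C57BL/6J mice was measured on Illumina arrays, 1 array per mouse. At embryonic stage E12.5 the labels give 5 wild type, 6 heterozygous and 5 homozygous embryos, of which 2, 3 and 2 are female and 3 of each genotype male, and call the tissue forebrain. At 23 weeks there were 3 wild type and 4 heterozygous males, and the tissue is called brain. The labels name Meis1, a homeobox transcription factor gene, as the allele of the adult mice. The titles of the adult samples name whole brain. How the allele differs from the wild type gene could not be learned from the sources used here. The title of the series names ganglionic eminences as the embryonic tissue.

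The choroid plexus is the epithelium that secretes cerebrospinal fluid into the brain ventricles. In the embryo it grows from the dorsal midline, next to the cortical hem, a strip of neuroepithelium that signals to the neighbouring cortex through Wnt and bone morphogenetic proteins. Otx2, Lmx1a and Msx1 are homeobox transcription factors of the dorsal midline: Otx2 is needed for choroid plexus development, Lmx1a marks the hem and roof plate, and Msx1 is a target of bone morphogenetic protein signalling that is also active outside the brain. Ttr, the thyroid hormone carrier transthyretin, Folr1, the folate receptor alpha, Aqp1, a water channel, and Clic6, a chloride intracellular channel protein, are products of the epithelium itself. Aqp1 is also made outside the nervous system, in red cells and many small vessels.

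Each array was normalized to the log2 scale within its own stage, and a probe counts as detected on an array where its detection p-value against the negative controls is under 0.05. Median signal before normalization was 164.3 to 209.7 on arrays of embryos and 119.1 to 142.8 on those of adults, and 52.3% to 54.8% and 53.1% to 55.1% of probes were detected. As a check of the labels, Meis1 differed by -1.22 ± 0.12 (SE) between homozygotes and wild types (limma, adjusted p = 0.000287), by -0.82 ± 0.11 between homozygotes and heterozygotes (adjusted p = 0.00428), by -0.40 ± 0.12 between heterozygous and wild type embryos (adjusted p = 0.999) and by -0.62 ± 0.19 between adult heterozygotes and wild types (adjusted p = 0.387). Embryos share a first part of the mouse number, read here as the litter (509, 542, 549 and 551, with 3, 5, 4 and 4 embryos), which the labels do not state. Litter 549 holds no wild type. In bulk tissue, fewer cells of a type and less RNA per cell cannot be told apart. Liver, yolk sac and eye also make Ttr or Otx2. Of 7 liver and visceral yolk sac genes, 4 (Afp, Alb, Fgb and Rbp4) were detected on no embryonic array and 1 on all arrays of each genotype, and their summed log2 signal was 7.79 to 8.46 in wild types, 7.91 to 8.29 in heterozygotes and 7.73 to 8.22 in homozygotes. Of 10 eye genes, 4 (Tyr, Tyrp1, Mitf and Rax) were detected on no embryonic array and 2 to 3 on all arrays of a genotype, with sums of 9.15 to 9.40, 9.04 to 9.26 and 8.92 to 9.35.

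The RefSeq promoter table (build GRCm38.p6) held the 250 bases before a start site for 4 of the 7 genes, Lmx1a, Otx2, Msx1 and Aqp1. The windows of Msx1 and Lmx1a are shown because these genes ran opposite to Ttr from embryo to embryo, and a window of Otx2 because it is the counterexample, with no such relation. They lie at chr5:37824586-37824835 (minus strand, Msx1), chr1:167689308-167689557 (plus strand, Lmx1a) and chr14:48665110-48665359 (minus strand, Otx2), and are written 5′ to 3′ with motif matches in capitals.
Msx1: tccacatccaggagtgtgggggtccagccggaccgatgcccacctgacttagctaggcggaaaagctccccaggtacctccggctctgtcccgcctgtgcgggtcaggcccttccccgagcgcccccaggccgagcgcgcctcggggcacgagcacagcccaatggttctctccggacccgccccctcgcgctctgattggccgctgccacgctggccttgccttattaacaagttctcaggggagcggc
Lmx1a: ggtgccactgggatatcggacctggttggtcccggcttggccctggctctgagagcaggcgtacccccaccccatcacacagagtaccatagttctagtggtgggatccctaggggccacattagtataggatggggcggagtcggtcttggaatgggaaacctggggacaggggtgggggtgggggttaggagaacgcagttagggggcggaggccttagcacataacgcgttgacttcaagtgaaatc
Otx2: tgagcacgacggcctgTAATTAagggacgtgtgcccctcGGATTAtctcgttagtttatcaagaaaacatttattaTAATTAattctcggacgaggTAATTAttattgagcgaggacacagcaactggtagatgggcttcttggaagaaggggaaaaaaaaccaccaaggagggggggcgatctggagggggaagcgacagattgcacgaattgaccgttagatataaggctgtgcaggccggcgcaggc
Both strands were searched for 5 short motifs. They were the homeobox core TAATTA and the core TAATCC of bicoid-class homeobox proteins, which include Otx2 itself. The binding core of TCF and LEF, CTTTGA, is that of Wnt signalling. A GC-type SMAD core, GGCGCC, stands for bone morphogenetic protein signalling. The last was TGACAG, a core bound by MEIS proteins. The Otx2 window held 3 matches of TAATTA and 1 of TAATCC, the latter on the other strand and so printed as GGATTA, with no overlap between them, and another of the 4 Otx2 windows held 1 TAATTA. None of the 5 motifs lay in the windows of Msx1, Lmx1a and Aqp1. Among 32851 windows of this length, 4.84% held TAATTA, 6.25% TAATCC, 13.8% CTTTGA, 9.59% GGCGCC and 15.9% TGACAG. Base composition differed as well, at 68% G and C in the Msx1 window, 59.2% in that of Lmx1a and 48.4% in that of Otx2.

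All 7 genes had a detected probe at E12.5, but not at the same strength above background. The main probes of Ttr, Otx2, Msx1, Lmx1a, Clic6 and Aqp1 were detected on all 16 embryonic arrays. Folr1 lay close to background, with its main probe detected on 13 and its second probe on 11 of the 16 arrays. The second probe of Lmx1a was detected on 8 of 16 and the third on 0 of 23 arrays, so Lmx1a is described by its main probe. In adult brain, 9 probes of 6 genes were kept, and no Lmx1a probe was detected on any of the 7 arrays.

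Ttr had the widest range of the 12 member probes from embryo to embryo. Its log2 signal in the 5 wild types was 11.13 (male 1), 12.12 (male 2), 11.71 (male 3), 11.81 (female 1) and 11.80 (female 2). In the 6 heterozygotes the lowest value was 10.84, the median 11.28 and the highest 12.05. The homozygotes gave 11.53 (male 1), 11.11 (male 2), 11.81 (male 3), 11.06 (female 1) and 10.94 (female 2). The range was 1.28 on the log2 scale, or 2.43-fold, and 80.7% of the kept probes had a smaller one. High and low embryos occurred in each genotype and the groups overlapped, with wild type male 1 among the homozygotes and 2 heterozygotes above every homozygote.

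Msx1 was low where Ttr was high. Among wild types it was 10.87 (male 1), 10.27 (male 2), 10.77 (male 3), 10.38 (female 1) and 10.83 (female 2). In heterozygotes it lay between 10.50 and 11.22, with a median of 10.83. The homozygotes gave 10.93 (male 1), 11.04 (male 2), 10.42 (male 3), 10.92 (female 1) and 11.29 (female 2). The wild type with the highest Ttr had the lowest Msx1 of all 16 embryos, and the homozygous male 3, highest in Ttr among homozygotes, had the lowest Msx1 of that group.

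Clic6 followed Ttr. Wild types gave 8.50 (male 1), 9.41 (male 2), 9.44 (male 3), 9.06 (female 1) and 9.31 (female 2). In heterozygotes the lowest, median and highest values were 8.79, 9.05 and 9.32. Homozygotes gave 9.06 (male 1), 8.74 (male 2), 9.40 (male 3), 9.01 (female 1) and 8.80 (female 2). Wild type male 1 was the lowest embryo in Clic6 and also the lowest wild type in Ttr. The remaining main probes varied less in absolute terms than Ttr: Lmx1a ran from 7.64 to 8.79, Otx2 from 9.97 to 10.77, Aqp1 from 7.69 to 8.69 and Folr1 from 5.20 to 5.94.

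**Figure D1:**
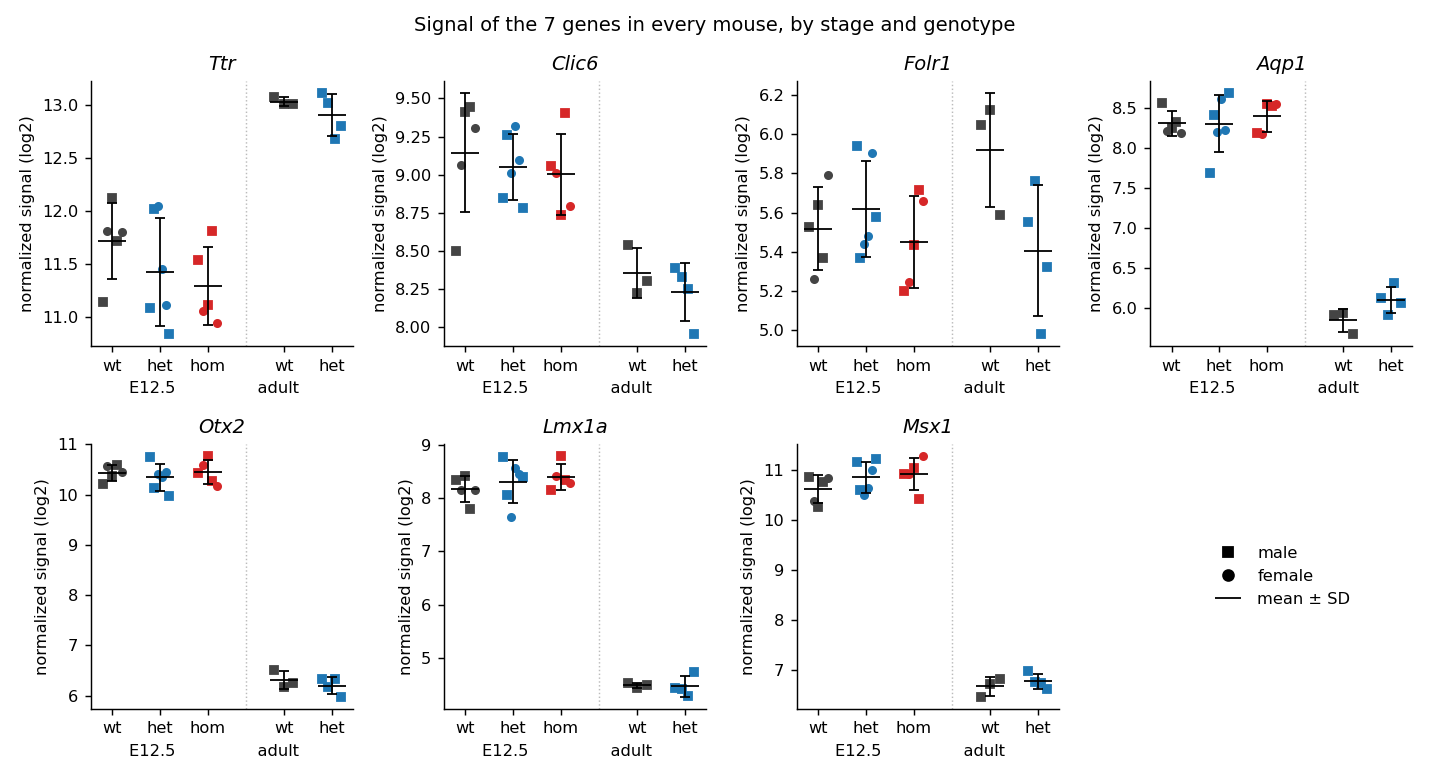
Normalized log2 signal (y axis) of the main probe of each gene in every mouse, by stage and genotype (x axis), with embryos and adults normalized apart, so heights are not comparable across the dotted line. Squares are males, circles females, and the bars mean ± SD; the 3 embryonic genotypes overlap for every gene, while adult Ttr lies between 12.68 and 13.11.

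Whether the genes varied together was tested over the 16 embryos, with Ttr set against each of the 6 others. Msx1 ran opposite to Ttr with a Pearson r of -0.884 and a Spearman rho of -0.906, and the permutation p values adjusted over the 6 pairs were 0.0003 and 0.00012. The relation was negative within every litter, though each holds only 3 to 5 embryos. With 3, 5, 4 and 4 embryos in litters 509, 542, 549 and 551, the r was -0.998, -0.936, -0.868 and -0.914. With values centred on their litter it was -0.913 (adjusted permutation p = 0.0015), and without the 2 embryos farthest from the Ttr median, -0.837. All 14338 other kept probes had a higher r with Ttr than Msx1 had, and the same count held without background correction, in the authors' processed values and with litter-centred values. Both values come from the same arrays and share their normalization.

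Clic6 ran with Ttr, with r = 0.715 and rho = 0.609 (adjusted permutation p = 0.00744 and 0.0417). The correlation was positive in 4 of 4 litters, from 0.881 to 0.944, and 0.872 with litter-centred values (adjusted permutation p = 0.0015). Only 63 kept probes (0.439%) had a higher r with Ttr than Clic6. Without the 2 embryos farthest from the Ttr median it was 0.644.

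Lmx1a, like Msx1, was lower where Ttr was higher, with less regularity. Its r was -0.596 (adjusted permutation p = 0.0287) and its rho -0.503 (adjusted permutation p = 0.101). The litters gave -0.675, -0.766, -0.832 and -0.894, and litter-centred values -0.798 (adjusted permutation p = 0.0015). Without the 2 embryos farthest from the Ttr median, r was -0.721. The call rested on single embryos: r was -0.513 without heterozygous female 1, -0.562 without heterozygous male 1 and -0.570 without homozygous male 2, with adjusted permutation p = 0.0999, 0.0526 and 0.0504.

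Otx2, Folr1 and Aqp1 did not pass. Otx2, the factor needed for the epithelium, had r = 0.006 and rho = -0.068 with Ttr (adjusted permutation p = 0.982 and 0.807), and its sign differed among litters, from -0.964 in litter 549 to 0.816 in litter 542. Folr1 had r = -0.211 and rho = -0.162 (0.639 and 0.655), with signal near background. Aqp1 had r = -0.163 and rho = -0.180 (0.672 and 0.655), negative in 3 of 4 litters. Its r was 0.011 without the 2 embryos farthest from the Ttr median, against -0.238 for Otx2 and -0.285 for Folr1.

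**Figure D2:**
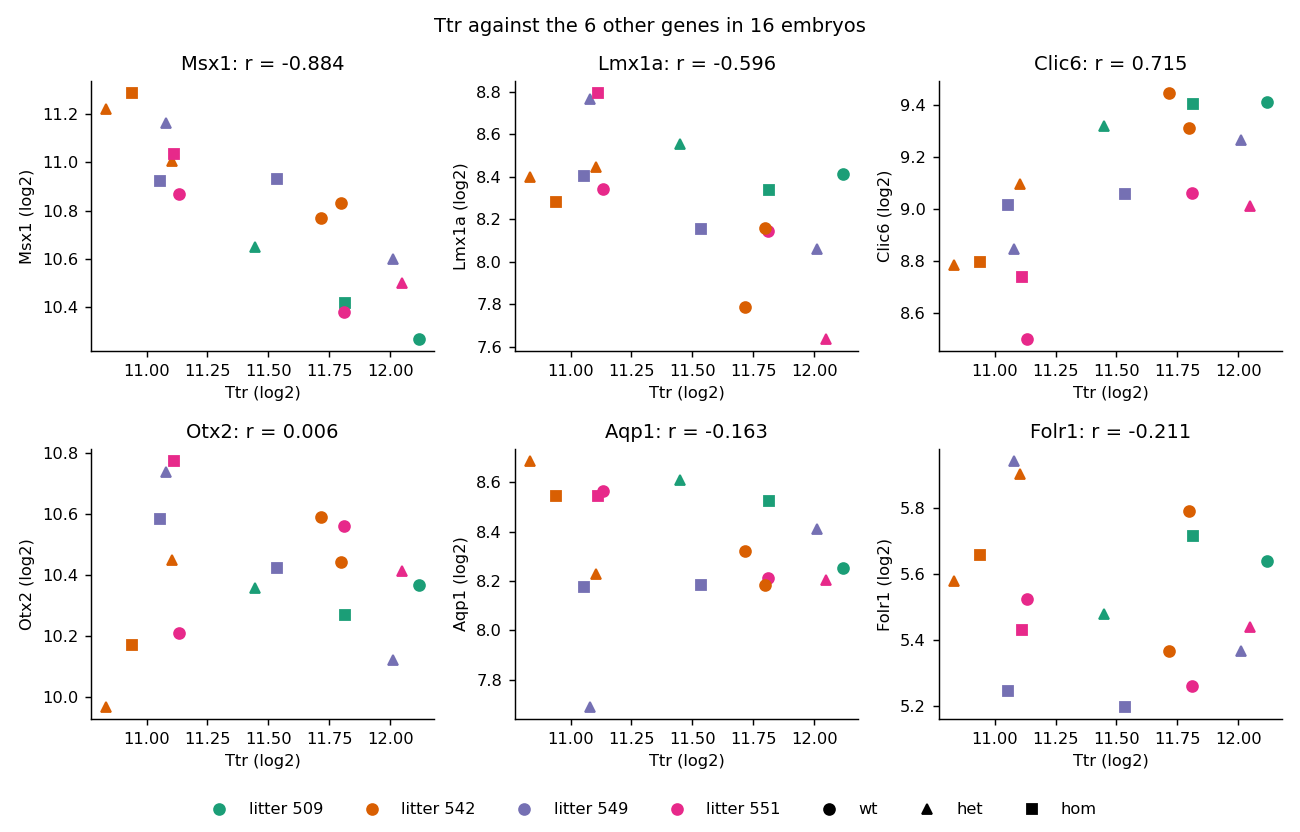
Log2 signal of Ttr (x axis) against the 6 other genes (y axes) in 16 embryos, 1 point per embryo, coloured by litter and shaped by genotype. The points of Msx1 (r = -0.884) fall and those of Clic6 (r = 0.715) rise along Ttr in each colour, whereas those of Otx2 (r = 0.006) do neither.

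The 15 pairs among the other 6 genes were computed after these values were seen. None passed over the 16 embryos as they stood, the nearest being Msx1 with Clic6 (r = -0.633, rho = -0.659, adjusted permutation p = 0.0718 and 0.0915) and Otx2 with Aqp1 (r = -0.620, rho = -0.617, with the same adjusted p values). Centred on litters, Msx1 and Clic6 had r = -0.877 (adjusted permutation p = 0.0063) and Lmx1a and Msx1 had r = 0.771 (adjusted permutation p = 0.0265).

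Levels of marker lists for other cell types moved with some of these genes. The family of 45 pairs was also chosen after the data were seen. In each pair, the 2 farthest embryos are those farthest from the median of its member gene (Ttr, Msx1 or Aqp1). Aqp1 ran with the summed signal of 10 genes of meninges and connective tissue (r = 0.794, rho = 0.711, adjusted permutation p = 0.0054 and 0.0577), at 0.903 to 0.992 within the 4 litters, and at 0.836 without the 2 farthest embryos. That sum lay between 12.64 and 13.26 in wild types, 12.65 and 13.11 in heterozygotes and 12.82 and 13.18 in homozygotes (log2), with 9 of 10 genes detected on all arrays of each group. The sum of 7 endothelial genes, between 10.90 and 11.35 over all embryos and detected throughout, had r = -0.670 with Ttr and 0.667 with Msx1 (rho = -0.576 and 0.618, adjusted permutation p = 0.0411 for each r, 0.101 and 0.0796 for rho). In litter 549 both signs turned, to 0.637 and -0.175, and without the 2 farthest embryos r was -0.513 and 0.435. Msx1 also ran with 17 genes of hem and roof plate signalling, though not in litter 551 (-0.088). The r was 0.670 and the rho 0.694 (adjusted permutation p = 0.0411 and 0.0577), with r = 0.593 without the 2 farthest embryos. Against Msx1 ran 7 genes of Cajal-Retzius cells, early cortical neurons that arise in part from the hem, though not in litter 509 (0.964). Here r was -0.708 and rho -0.665 (adjusted permutation p = 0.0411 and 0.0657), with r = -0.718 without the 2 farthest. Reln and Calb2, at means of 10.80 and 9.59, were the brightest Cajal-Retzius genes tested. Of the 17 hem genes 11 were detected on all arrays of each embryonic genotype and 5 to 6 on none (Wnt1, Wnt2b, Bmp2, Bmp6 and Gdf7, and in wild types Wnt9a), and of the 7 Cajal-Retzius genes 5 on all and 1 to 2 on none (Ndnf, and outside homozygotes Trp73). The hem sum lay between 12.22 and 12.44 in wild types, 12.30 and 12.52 in heterozygotes and 12.35 and 12.61 in homozygotes (log2), and the Cajal-Retzius sum between 11.63 and 12.11, 11.50 and 12.23, and 11.61 and 12.12. Litter-centred, the relations of Msx1 with the hem and Cajal-Retzius sums had adjusted permutation p = 0.251 and 0.313. The pairs given above are those that passed by r with values as they stood. The sum of 27 other choroid plexus epithelium genes did not pass with any of the 3 genes set against it. Its r was -0.364 with Ttr, 0.423 with Msx1 and 0.327 with Aqp1 (adjusted permutation p = 0.441, 0.355 and 0.441). The sum weighs its brightest genes most. It lay between 14.55 and 14.90 in wild types (log2), where Igf2 alone had a mean of 13.98 over the embryos. In wild types 6 of the 27 genes were detected on no array. The sum thus says little about its dimmer genes, and it was not set against Clic6. The part of other cell types in the relation of Ttr and Msx1 was not tested.

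The genes whose pattern was most like each member were ranked by Pearson r over the 16 embryos, as a description. For Ttr they were Slc1a3, a glutamate transporter of radial glia (0.844), Sst, the neuropeptide somatostatin (0.836), Agap1 (0.817), Rps6kl1 (0.815) and Pfkfb4, an enzyme that regulates glycolysis (0.810). For Msx1 they were Akap2 (0.899) and Rbpms2 (0.873), and for Clic6, Prkcb, a protein kinase C (0.903), and Tle4, a corepressor (0.899). Lmx1a was followed by Tal1 (0.854) and Shroom3 (0.825), and Otx2 by Gm5643 (0.823) and Kank2 (0.797). Aqp1 had Cygb, cytoglobin (0.858), and Stat3 (0.841) beside it, and Folr1 had Zfp688 (0.897) and Zfp414 (0.885).

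Among litters, Msx1 differed and the others did not pass. Mean Msx1 was 10.44 ± 0.19 (SD, n = 3) in litter 509, 11.02 ± 0.23 (n = 5) in 542, 10.91 ± 0.23 (n = 4) in 549 and 10.70 ± 0.31 (n = 4) in 551. All 3 embryos of litter 509 lay below all 5 of litter 542. Mean signal before normalization also went with litter, at 561 to 645 in litter 509, 562 to 593 in 542, 696 to 756 in 549 and 682 to 906 in 551, and its part in the litter results was not tested. After genotype and sex, the litter terms spanned 0.64 (limma moderated F, adjusted p = 0.034). Thus 1 of 11 member probes was called, against 34% of the 14340 probes tested, a smaller share than among all probes. The Msx1 call was lost (adjusted p between 0.0532 and 0.0919) when any of 7 embryos was left out: wild type male 2, wild type females 1 and 2, heterozygous female 3, heterozygous male 3, homozygous male 3 or homozygous female 2.

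Clic6 and Ttr had their highest litter mean where Msx1 was lowest. In litter 509 the 3 embryos had Clic6 at 9.38 ± 0.05, against 9.09 ± 0.30 in 542, 9.04 ± 0.17 in 549 and 8.83 ± 0.26 in 551 (SD), and the litter terms spanned 0.60 (adjusted p = 0.0688). Without wild type male 3 this p was 0.0444. Ttr means were 11.79 ± 0.34, 11.28 ± 0.45, 11.42 ± 0.45 and 11.53 ± 0.48 in the same order (adjusted p = 0.33). The second Folr1 probe had adjusted p = 0.0684, and Lmx1a (0.895) and Otx2 (0.659) were far from the threshold.

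**Figure D3:**
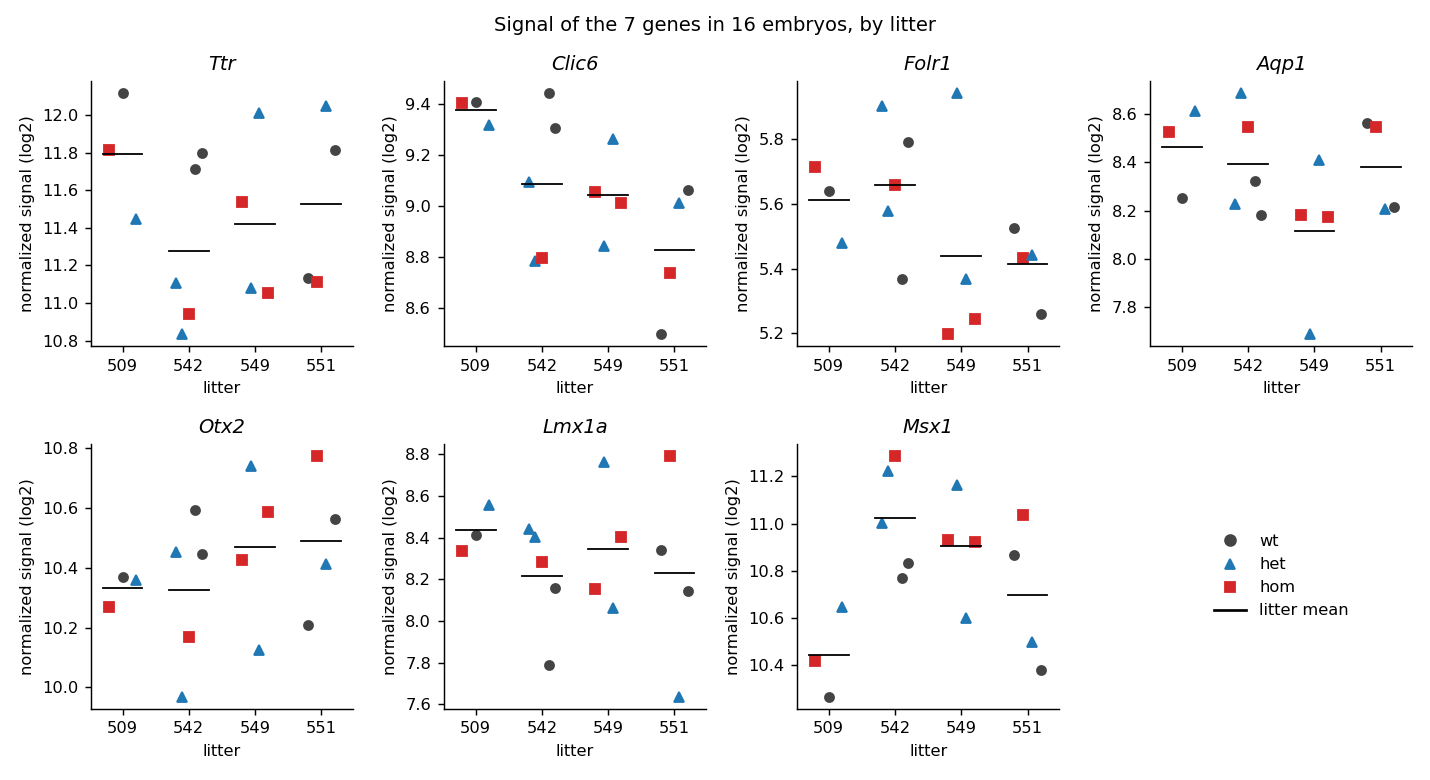
Log2 signal (y axis) of the main probe of each gene in the 16 embryos, grouped by litter (x axis), with 1 point per embryo by genotype and a line at each litter mean. Msx1 is lowest and Clic6 highest in litter 509, with means of 10.44 and 9.38.

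The comparison of homozygotes with wild types asked whether the dorsal midline genes depend on the Meis1 allele at E12.5. In the limma fit with sex and litter, 0 of 11 member probes were called, where 0.0488% of all probes were, and 3 of 11 had an unadjusted p under 0.05, where 11.8% of all probes did. Homozygotes and wild types overlapped for all 11 probes, where 0.823% of all probes separated them. The test's threshold was an adjusted p of 0.05 over all probes.

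Ttr was 11.29 ± 0.37 (SD, n = 5) in homozygotes and 11.72 ± 0.36 (n = 5) in wild types, and the fitted difference was -0.52 ± 0.25 (SE; 95% interval -1.06 to 0.01; adjusted p = 0.428). It was negative in each litter that held both genotypes, at -0.30 in 509, -0.82 in 542 and -0.36 in 551. Msx1 had the opposite sign, with means of 10.92 ± 0.32 and 10.62 ± 0.28, a difference of 0.34 ± 0.15 (SE; interval 0.03 to 0.66; adjusted p = 0.41) and litter values of 0.15, 0.49 and 0.41. Both differences lay within the range of embryos of a single genotype, and neither passed. In the same comparison the 3 liver and yolk sac genes tested were Apoa1 at -0.57, Apoa2 at -0.36 and Apoc2 at -0.04, with 0 called, and their part in the Ttr value was not tested.

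The channels and the receptor also missed the threshold. The 3 Aqp1 probes gave 0.25 ± 0.15, 0.34 ± 0.18 and 0.37 ± 0.17 (SE; adjusted p = 0.492, 0.463 and 0.418). Clic6 gave -0.23 ± 0.15 (adjusted p = 0.534). The Folr1 probes disagreed, at -0.02 ± 0.15 for the main and -0.37 ± 0.12 for the second probe (adjusted p = 0.976 and 0.381), which was detected on 3 of 5 homozygote and 4 of 5 wild type arrays. The other homeobox genes gave 0.22 ± 0.21 for Lmx1a and -0.04 ± 0.16 for Otx2 (adjusted p = 0.658 and 0.936), and the interval for Otx2 ran from -0.38 to 0.30. Without homozygous male 2, the Lmx1a value was -0.04.

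A single copy of the allele gave no call either. Between heterozygotes and wild types 0 of 11 probes were called (0% of all probes), and 1, the second Folr1 probe, had an unadjusted p under 0.05 (3.32% of all probes). Ttr differed by -0.35 ± 0.24 and Msx1 by 0.24 ± 0.14 (SE, adjusted p = 0.999 for each), but in litter 551 the signs were turned, at 0.58 and -0.13. Between homozygotes and heterozygotes 0 of 11 were called (0.0697% of all probes), with 0 of 11 at an unadjusted p under 0.05 (8.33% of all probes) and differences from -0.17 to 0.23.

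Sex gave 0 calls of 11 (0.0697% of all probes), with differences, female minus male, from -0.26 to 0.10, and 1 unadjusted p under 0.05 (4.46% of all probes) for the second Lmx1a probe. The Ttr difference between homozygotes and wild types was -0.17 in males and -0.81 in females. The test of that contrast gave -0.66 ± 0.48 (SE, adjusted p = 0.999), and 0 of 11 probes were called (0% of all probes), none with an unadjusted p under 0.05 (3.03% of all probes).

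**Figure D4:**
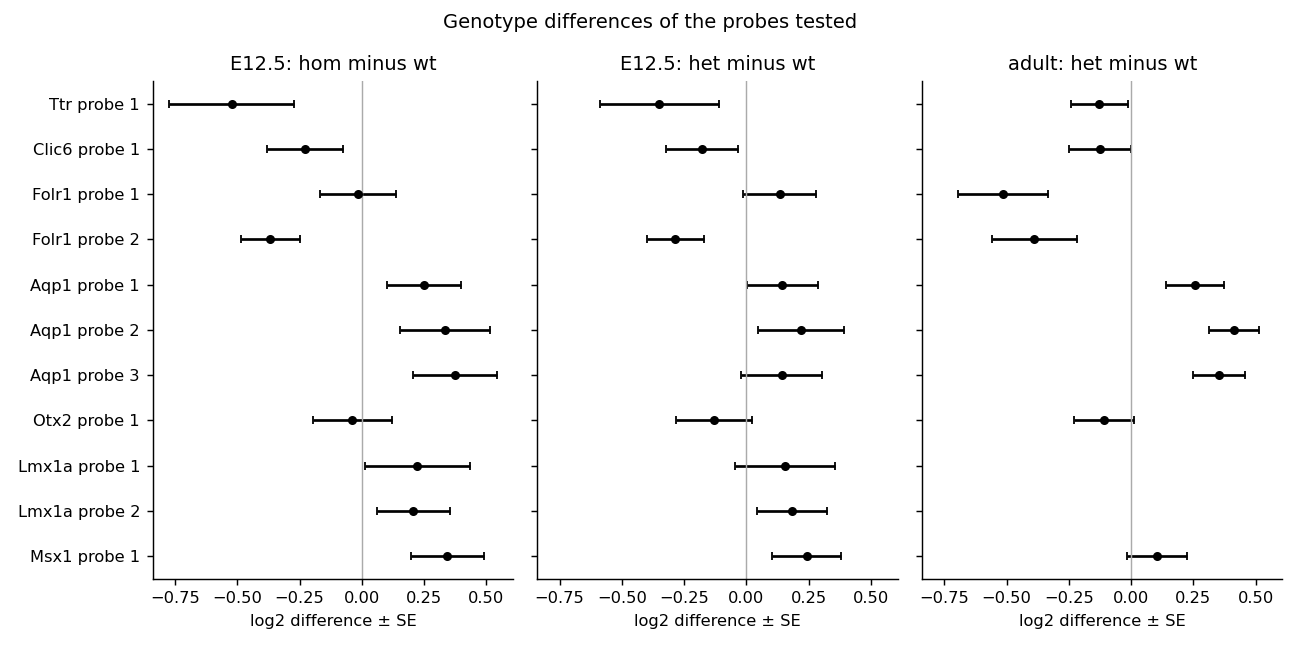
Fitted log2 differences with their standard errors (x axes) for each probe tested (y axis) in 3 genotype comparisons. No probe passed an adjusted p of 0.05; at E12.5 Ttr lies left of 0 (-0.52 and -0.35) and Msx1 right of it (0.34 and 0.24), and in adults the 3 Aqp1 probes lie to the right.

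Other genes of the choroid plexus and hem gave the same count in homozygotes against wild types, where 0.0488% of all probes were called. At that share, a count of 0 says little about lists of this size. Of the other choroid plexus epithelium genes 0 of 18 were called (median difference 0.04, against 0.00 over all probes). The brightest were Igf2, a growth factor, at 0.15 ± 0.12 and Igfbp2, which binds it, at -0.02 ± 0.14 (SE). The 18 genes went both ways, with 10 above 0. They ran from Kcne2 at -0.49 ± 0.20 to Col8a2 at 0.65 ± 0.24 (SE). Of hem and roof plate signalling genes 0 of 11 were called (median 0.10), among them Axin2, a Wnt target, at 0.11 ± 0.10 and Rspo3, a Wnt enhancer, at 0.21 ± 0.14. The hem transcription factors gave 0 of 14 (median 0.03), with Otx1 at 0.16 ± 0.12 and Zic1 at -0.07 ± 0.12. Genes of ciliation gave 0 of 7 and those of Cajal-Retzius cells 0 of 5. Heterozygotes, at E12.5 and as adults, gave 0 calls in each of these 5 lists, and 0% of all probes were called.

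Across litters, where 34% of all probes were called, members of these lists differed too. The litter test called 10 of 18 other choroid plexus genes, led by Slc31a1, a copper transporter (span of litter terms 0.66, adjusted p = 0.00156), and Atp1b1, a subunit of the sodium pump (0.71, adjusted p = 0.00323). Kcne2, a potassium channel subunit (0.98), and Ecrg4 (1.06) were also among them. Of hem signalling genes, 6 of 11 passed, with Lef1, a Wnt effector, at 1.11, Rspo1 at 1.03, Wnt5a at 0.91 and Bmp5 at 0.71. Hem transcription factors gave 3 of 14, namely Gli3 (2.73), Zic2 (1.12) and Zic1 (0.53), and Cajal-Retzius genes 1 of 5, Lhx1 (1.65), with 0 of 7 for ciliation. The median span was 0.58 for the choroid plexus list and 0.59 for hem signalling, against 0.40 over all probes. Such spans were not particular to these lists. Among the lists of other cell types they ran from 0.36 (eye) to 0.64 (diencephalon and midbrain), with 0.61 for meninges and connective tissue and 0.56 for pallium.

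In adult brain, heterozygotes were compared with wild types, and 0 of 9 member probes were called (0% of 14266 probes). An unadjusted p under 0.05 was found for 5 of 9 probes, all of Aqp1 and Folr1, against 10.6% of all probes. Aqp1 was higher in heterozygotes by each of its 3 probes without passing the threshold, and Folr1 lower by both. Ttr, Clic6, Otx2 and Msx1 gave small differences.

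By its second probe, Aqp1 was 5.91, 5.92 and 5.66 in the wild types and 6.24, 6.32, 6.26 and 6.16 in the heterozygotes. All 4 heterozygotes lay above all 3 wild types. The difference was 0.41 ± 0.10 (SE; adjusted p = 0.366). The third probe gave 4.71, 4.82 and 4.97 against 5.08, 5.09, 5.29 and 5.28, again without overlap, and 0.35 ± 0.10 (adjusted p = 0.38). It lay near background, detected on 2 of 3 wild type and 4 of 4 heterozygous arrays. The main probe overlapped, at 5.92, 5.94 and 5.68 against 6.13, 5.92, 6.31 and 6.06, with 0.26 ± 0.12 (adjusted p = 0.466). So 2 of 9 probes, both of Aqp1, had groups that did not overlap, where 10.4% of all probes did.

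Folr1 was 6.05, 6.12 and 5.59 in wild types and 5.55, 5.76, 4.98 and 5.32 in heterozygotes, and the groups overlapped. The difference was -0.51 ± 0.18 by the main and -0.39 ± 0.17 by the second probe (SE, adjusted p = 0.416 and 0.466). Adult Ttr was even, at 13.08, 13.01 and 13.01 in wild types and 13.11, 13.02, 12.68 and 12.80 in heterozygotes, a difference of -0.13 ± 0.12 (adjusted p = 0.679). Clic6 gave -0.13 ± 0.12, Otx2 -0.11 ± 0.12 and Msx1 0.10 ± 0.12, with adjusted p from 0.679 to 0.75 for these 3 genes and Ttr. Over the 23 other choroid plexus genes tested in adults, 0 were called (0% of all probes) and the median was -0.10.

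Whether a heterozygote effect differed between adults and E12.5 was tested in the 23 arrays normalized together, and 0 of 11 member probes were called (0% of 16352 probes). The main Folr1 probe, at -0.78 ± 0.27 (SE, adjusted p = 0.583), was the single member with an unadjusted p under 0.05 (6.78% of all probes). Aqp1 gave 0.17 ± 0.21, 0.29 ± 0.23 and 0.34 ± 0.22 by its 3 probes, and Ttr 0.23 ± 0.32.

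Between the stages, with wild types and heterozygotes normalized together, the 3 homeobox genes were lower in adult brain and Ttr was higher. Stage, tissue and array set go together and cannot be told apart, and 77% of the 16352 probes were called, so the call of 11 of 11 member probes says little by itself. Of these, 4 were higher and 7 lower in adults, where 34.9% and 42.1% of all probes were. The median of all probes was -0.11 (adult minus E12.5). When each stage was normalized apart it was -0.89, and the share of calls that were higher in adults moved from 45.3% to 18.4%. Values are therefore also given relative to the median of all probes under each normalization.

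Ttr was 6.64-fold higher in adult brain, at 2.73 ± 0.19 (SE, log2; adjusted p = 6.35e-12). Otx2 was lower by -3.12 ± 0.12 and Msx1 by -2.97 ± 0.15 (adjusted p = 1.11e-16 and 1.01e-14). Lmx1a, not detected in any adult, was at least 7.31-fold higher at E12.5, a bound against the lowest detected signal of each adult array. Its second probe gave a bound of at least 1.05-fold. Such bounds, here and below, hold for background-corrected signal only. The fitted difference of the main Lmx1a probe, which uses undetected adult values, was -3.36 ± 0.15 (SE; limma, adjusted p = 9.71e-16). Without background correction the fitted log2 differences were smaller for the homeobox genes, at -2.22 for Otx2, -2.29 for Msx1 and -1.40 for Lmx1a, and 2.65 for Ttr. Relative to the median of all probes, the joint and the apart values were 2.84 and 2.28 for Ttr, -3.01 and -3.22 for Otx2, and -2.86 and -3.14 for Msx1.

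The channels and the receptor had no common direction. Aqp1 was lower in adults by all 3 probes, at -1.44 ± 0.13, -0.75 ± 0.13 and -1.10 ± 0.13 (SE), and by -0.79, -0.38 and -0.36 without background correction. Relative to the median these probes gave -1.33, -0.64 and -0.99 in the joint and -1.46, -0.77 and -0.80 in the apart values. Clic6 was 0.42 ± 0.14 (adjusted p = 0.00916) with all arrays together, 0.33 without background correction and -0.79 when normalized apart. Relative to the medians of these 3 scalings it was 0.53, 0.37 and 0.10, the last below its standard error of 0.14. Folr1 gave 0.81 ± 0.15 and 0.45 ± 0.14 by its probes, 0.26 and 0.13 without background correction, and 0.09 and -0.14 when normalized apart, where it did not pass. Relative to the median it was 0.91 and 0.56 in the joint and 0.98 and 0.74 in the apart values.

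**Figure D5:**
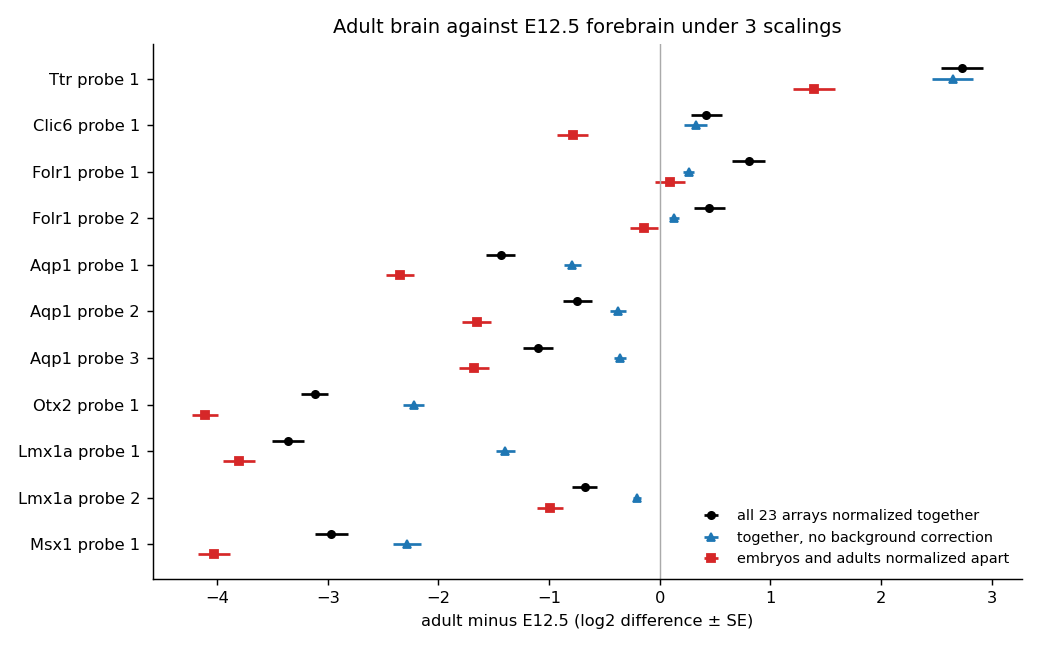
Adult minus E12.5 log2 difference with standard error (x axis) for the 11 member probes (y axis) under 3 scalings. With the stages normalized apart every probe moves left along with the median of all probes (-0.89 in place of -0.11), Clic6 from 0.42 to -0.79 and Ttr from 2.73 to 1.39.

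The listed genes of the hem were nearly all lower in adults. All 14 hem transcription factors tested were lower in adults (median -2.58), with Dmrt3 at least 16.7-fold higher at E12.5, Dmrta2 at -4.22 ± 0.12, Hes5 at -3.89 ± 0.12 and Otx1 at -3.48 ± 0.12 (SE). Of hem signalling genes, 10 of 11 were lower and 0 higher (median -1.94), among them the Wnt ligands Wnt3a and Wnt8b, at least 8.07-fold and 4.19-fold higher at E12.5, Rspo3 (-2.14 ± 0.13) and Bmp4 (-2.44 ± 0.15). Relative to the median of all probes, these 14 and 10 genes lay below it in the joint and in the apart values. Detection in embryos alone was enough for a probe to be kept here, and genes kept in this way lean to lower values in adults. In the comparison within adults, only 11 of the 14 factors and 7 of the 11 signalling genes were kept. The counts of lower genes thus partly follow from the filter. Being lower was not particular to the hem, and 42.1% of all probes were lower. So were 4 of 4 pallium, 4 of 4 ganglionic eminence and 7 of 10 meninges and connective tissue genes. Of 8 diencephalon and midbrain genes, 7 were lower and 1 higher, while all 7 genes of adult neurons and glia were higher.

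Of 25 other choroid plexus epithelium genes, 13 were higher and 8 lower in adults (median 0.45), or 7 and 13 when normalized apart, where the median of all probes is lower. Slc13a4, a sulfate transporter, was higher by 4.48 ± 0.09 and Atp1b1, which neurons also express, by 4.86 ± 0.14 (SE). Kl, the ageing-related protein klotho, was detected on no embryonic array and was at least 6.48-fold higher in adults. Igfbp2 fell by 3.26 ± 0.13. Among the 13 higher genes, Sostdc1, Cab39l, F5, Slc12a2 and Car2 were below 0 when normalized apart, but relative to the median of all probes 13 of the 21 called genes lay above and 8 below it under either normalization, with 0 changing side. Of 7 ciliation genes 1 was higher (Rsph1, 1.58 ± 0.09) and 5 lower, and of 5 Cajal-Retzius genes 2 were higher and 2 lower, or 1 and 3 when normalized apart.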

How the data were processed

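Per the file headers, the deposited table of unprocessed signals holds an intensity and a detection p-value for each probe and array, and a second deposited table holds intensity values that the authors processed by steps not given in the sources used here, with 27% of embryonic and 23% of adult values below 0. Arrays were read with GenomeStudio 2011.1, per the submitters' processing notes. RNA was taken up in Trizol and cleaned on columns, per the labels' protocols.

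The unprocessed intensities were corrected for background in limma 3.58.1 (R 4.3.3) by its normexp model, which took the noise from the detection p-values and used an offset of 16. Quantile normalization and log2 followed, apart for each stage and together for the comparison of stages. Tests used 14340 probes detected on 5 or more arrays of embryos, 14266 detected on 3 or more of adults, and 16352 detected on 3 or more of the 23 arrays. Embryos shared 1 limma fit with genotype, sex and litter, two-sided, with Benjamini-Hochberg adjustment over all probes kept. P-values measure the spread between these mice. The correlations used 100000 permutations, also within litters. The fits were tested on simulated data. No array pair held identical values.

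Every probe of the 7 genes was named, with the brightest as the main probe. The 5 genes most like Ttr and the 2 most like each other member were named by r, and from each list up to 4 called genes of smallest p, or 2 of highest signal where none passed. Some further genes were named to account for a count or to give the ends of a range. The members and lists were chosen with earlier results of these data known. Of all probes, 23978 carried 1 symbol and 1719 none, and 23962 matched the reference table (GRCm38.p6) by Entrez number. The files name no genome build. Alternatives were the authors' processed values, no background correction, no filter, other treatments of litter, a replicate block, and leaving out each array. Centring on genotype, the 15 further pairs and the marker sums were added after the data were seen.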

Additional observations from a re-analysis of the deposited data

Results flagged for a closer look

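Among 48 groups of 4 to 6 mice tested for a single distant value, 2 had one, and chance gives about 1 in 20. In wild type male 1 the third Aqp1 probe was 7.131 (log2), far above the other 4 wild type embryos at 6.398 to 6.596. The other is heterozygous female 1 for the third Lmx1a probe, at 4.665 against 4.471 to 4.524 in the other 5 heterozygous embryos, but this probe was not detected on any array. Both embryos belong to litter 551.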

How the results depend on the processing

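No member probe passed the threshold in the genotype or sex comparisons under any alternative run, including each array left out. Counts over all probes moved as follows. Homozygotes against wild types gave 7, with 3 without background correction and 4 without the filter, with the replicate block or without litter 549. Homozygotes against heterozygotes gave 10, with 6 without the filter, 2 without litter 549 and 6 to 14 with an array left out. Sex gave 10, with 5 without the litter term, with the replicate block or without litter 549, and 5 to 10 with an array left out. The test of stage against heterozygosity gave 0, with 4 without the filter and 0 to 3 with an array left out, and adult heterozygotes 0, with 0 to 1. Of member probes, litter called 1, with 2 in the authors' values, 0 without the filter and 0 to 2 with an array left out.

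The values that changed sign were the following. Between homozygotes and wild types, Otx2 was 0.01 without the litter term and Folr1 0.075 without litter 549. With an array left out, the ranges were -0.093 to 0.058 for Folr1, -0.252 to 0.058 for Otx2 and -0.038 to 0.335 for Lmx1a. Between homozygotes and heterozygotes, Folr1 was 0.04 without litter 549, and the ranges were -0.016 to 0.202 (Aqp1), -0.119 to 0.195 (Lmx1a), -0.109 to 0.045 (Clic6), -0.039 to 0.192 (Otx2) and -0.302 to 0.015 (Ttr). Adult Msx1 ranged from 0.00 to 0.18. Clic6 between stages was -0.79 with the stages normalized apart, which is 0.10 above the median of all probes there. The r of Ttr and Otx2 was -0.004 in the authors' values, -0.003 without background correction or litter-centred, -0.009 genotype-centred, -0.238 without the 2 farthest embryos and -0.254 to 0.133 with an array left out. That of Ttr and Aqp1 was 0.011 without the 2 farthest embryos. That of Ttr and Lmx1a was -0.544 genotype-centred, no longer passing, and -0.699 to -0.513 with an array left out. The relations of Ttr with Msx1 and Clic6 passed under each alternative. Where the processing changed a value, the cause was not tested.

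Groups share replicate numbers, which the main fits did not use as pairs. Of same-numbered pairs, 21 of 36 embryonic and 1 of 3 adult had a correlation of deviations over 0.1 (-0.538 to 0.740 and -0.135 to 0.110). Some same-numbered embryos also share a litter, and differently numbered pairs are not given here. These values therefore cannot decide whether the numbers pair the mice. With the replicate block, Folr1 was 0.043 and Ttr -0.671 between homozygotes and wild types, and the litter test called 1361 probes in place of 4878. No member lost or gained a call under the block. Folr1, the second Lmx1a probe and, in adults, the third Aqp1 probe lie near background, and the number of arrays limits the precision.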
